A study of Mus musculus with 12 samples.

Results

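The mitotic kinesin genes are 10 genes, Kif11, Kif14, Kif15, Kif18a, Kif20a, Kif20b, Kif22, Kif23, Kif2c and Kif4, taken by symbol from a deposited table of 54532 genes. Each symbol stood on 1 row, and all 10 were measured in every library. The cells were MC38, a line derived from a mouse colorectal tumour, and 3 cultures were sequenced in each of 4 groups: control, 3 µM nintedanib, 8 Gy of X-rays, and the combination of 3 µM nintedanib and 8 Gy. Treated cultures carry a label of 24 hours, controls carry no time, and the study's design text says that the experiment was done independently 3 times. Nintedanib inhibits the receptor tyrosine kinases for VEGF, FGF and PDGF. All groups are 1 cell line in culture, so the values describe MC38 cells alone.

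Kinesins are motor proteins that turn ATP hydrolysis into movement along microtubules or into removal of their ends. The mitotic members build and separate the spindle poles, move and align chromosomes, and organise the midzone where the cell divides. Their mRNAs are low in G1 cells and accumulate in G2 and mitosis, so in bulk RNA their level also follows the share of cells in those phases. In these libraries a larger share of cells in G2 or mitosis and more mRNA per such cell cannot be told apart.

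After radiation all 10 genes rose, by 1.22-fold (Kif22) to 2.31-fold (Kif20a) in mean FPKM, a fragment count per length of the gene model and per depth, and 8.04% of all genes tested rose. With nintedanib alone 3 of the 10 were called lower, at 0.820 to 0.845 of the control mean, and none higher, where 22% of all genes were called lower and 19.7% higher. With both treatments 5 of the 10 were called above control (22.3% of all genes), and 7 of the 10 were called below radiation alone (17.3% of all genes). Radiation had the highest mean of the 4 groups in all 10 genes. The genes were chosen with earlier results of these data known, so the shares of all genes are given as description.

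Many genes of mitosis carry a short promoter element called the CHR, with the core TTTGAA or TTTAAA, near the start of transcription. It is bound by complexes that hold such genes down in resting cells and turn them on in G2. Because the members moved together after radiation, their RefSeq promoters (GRCm38.p6, 250 bases before to 50 after the start) were searched for TTTGAA and TTTAAA and for CCAAT, the core of the NF-Y element, on both strands. A promoter sequence was matched for 9 of the 10 genes, all but Kif20a. At least 1 CHR core was found in 8 of the 9, against 27.6% of all 32851 promoters of the table, and CCAAT in 5 of the 9, against 37.4%.

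The 90 bases from 60 before to 30 after the start follow for 7 of them, 5′ to 3′ on the gene's strand, to show where the cores lie relative to each other. Capitals mark the CHR cores and CCAAT. A CHR core on the other strand reads TTCAAA, and a reversed CCAAT reads ATTGG. This window was chosen after the matches were seen. It held a CHR core in 7 of the 9 genes searched and in 7.9% of all promoters.
Kif11: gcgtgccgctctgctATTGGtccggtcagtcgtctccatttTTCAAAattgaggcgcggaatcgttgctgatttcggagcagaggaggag
Kif15: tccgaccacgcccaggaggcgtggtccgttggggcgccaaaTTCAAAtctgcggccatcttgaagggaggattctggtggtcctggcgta
Kif22: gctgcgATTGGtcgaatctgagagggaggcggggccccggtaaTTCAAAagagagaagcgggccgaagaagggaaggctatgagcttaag
Kif23: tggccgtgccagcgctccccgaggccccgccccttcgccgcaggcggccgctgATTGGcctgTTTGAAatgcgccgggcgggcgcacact
Kif4: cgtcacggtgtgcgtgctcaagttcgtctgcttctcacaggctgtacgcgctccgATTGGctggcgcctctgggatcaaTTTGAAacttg
Kif20b: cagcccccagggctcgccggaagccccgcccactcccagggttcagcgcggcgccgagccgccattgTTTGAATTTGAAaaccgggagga
Kif18a: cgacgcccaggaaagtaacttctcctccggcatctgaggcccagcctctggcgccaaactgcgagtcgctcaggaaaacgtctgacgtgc
The lines are chr19:37376322-37376411 on the plus strand for Kif11, chr9:122951021-122951110 on the plus strand for Kif15 and chr7:127042391-127042480 on the minus strand for Kif22. Kif23 is chr9:61946770-61946859 on the minus strand, Kif4 is chrX:100626005-100626094 on the plus strand, Kif20b is chr19:34922298-34922387 on the plus strand and Kif18a is chr2:109280678-109280767 on the plus strand. In Kif11, Kif15 and Kif22 the core lay on the minus strand of the gene, from 19, 19 and 17 bases before the start. In Kif23 it began at base 3 after the start, 4 bases after a reversed CCAAT. Kif20b held 2 copies of TTTGAA back to back, from base 8 to base 19. The Kif18a window and its whole 300-base promoter held none of these letters in that order, while the Kif18a mRNA rose 1.85-fold after radiation. In Kif14, Kif2c and Kif4 the RefSeq start lay 1505, 3867 and 328 bases inside the deposited gene, so the window there, that of Kif4 included, may not be the start used in these cells. A match of letters is a description and shows no binding.

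Libraries held 16103528 to 18196615 fragments, read back from the steps of the FPKM values. Every member had 538 to 6662 fragments in every library. The CV within a group of 3 was 1.12 to 16.0%, with a median of 6.91%. Fold changes below are on the log2(FPKM + 1) scale and come from 1 limma fit of 13012 genes over all 12 libraries, with Benjamini-Hochberg adjusted p. The labelled colorectal origin was checked with 8 epithelial markers. Epcam was at 0 in every library, and Krt8, Krt18, Krt20, Cdx2 and Vil1 reached at most 0.601 FPKM, so these defining markers were absent or near 0, while Cdh1 was at 4.12 to 8.73 FPKM and Krt19 at 0.623 to 4.81 FPKM. All 5 mesenchymal markers looked up reached 1 FPKM in 3 or more libraries, and of these Vim was at 579 FPKM in controls. Of 4 endothelial markers 1 reached that level. Of 5 leukocyte markers none exceeded 0.0292 FPKM.

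**Figure D1:**
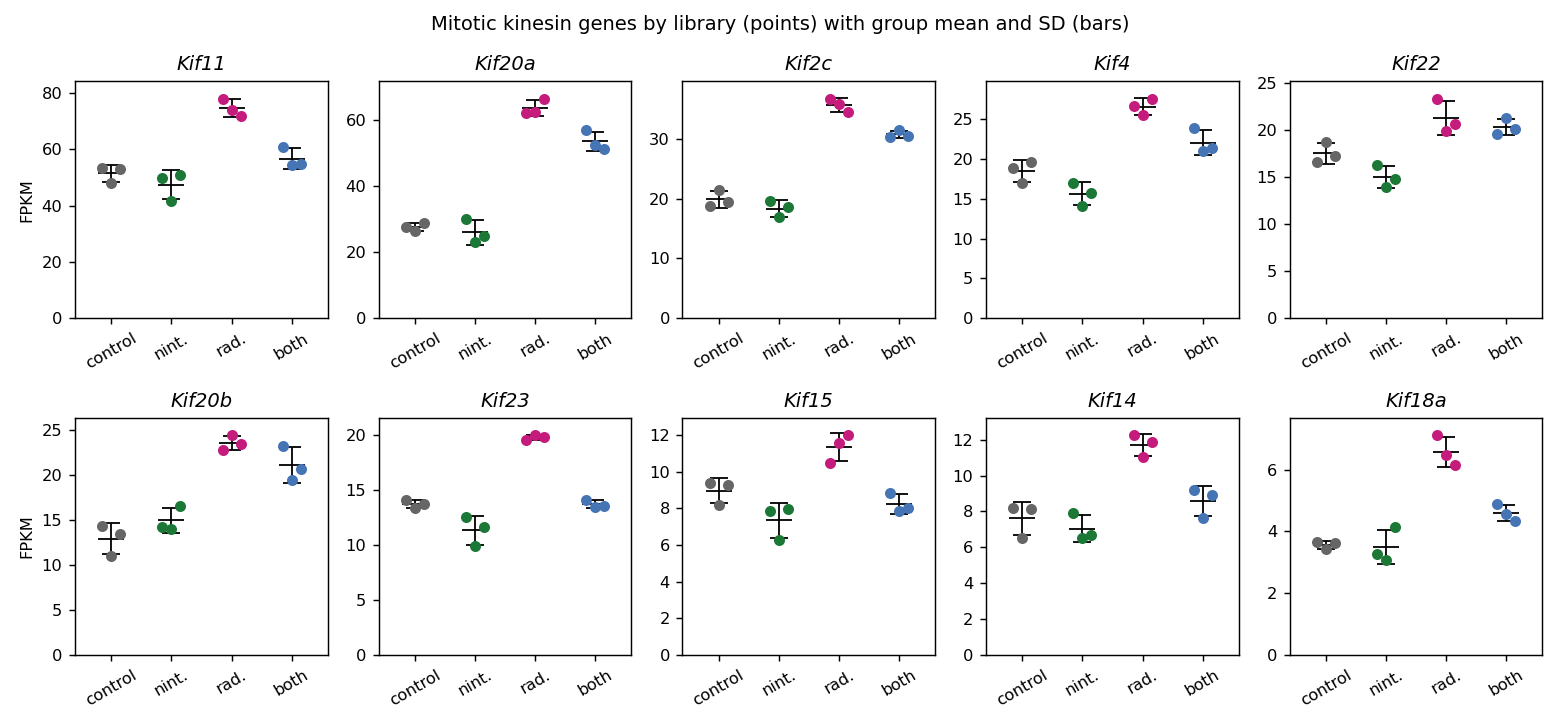
FPKM of each mitotic kinesin gene in each of the 12 libraries (points), with the group mean and SD (n = 3, bars) for control, nintedanib (nint.), radiation (rad.) and both treatments. Axes start at 0. The radiation group has the highest mean in all 10 panels, and its 3 libraries lie above all control libraries in each.

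The spindle assembly motors are Kif11, which pushes the poles apart by sliding antiparallel microtubules, and Kif15, which works on parallel bundles and can keep a spindle bipolar when Kif11 is blocked. Kif11 (ENSMUSG00000012443, chromosome 19, 37376403 to 37421859, plus strand) was the member with the highest control level. Its values were 53.3, 47.9 and 53.0 FPKM in controls, 49.8, 41.6 and 50.9 FPKM with nintedanib, 77.9, 74.0 and 71.6 FPKM after radiation, and 60.9, 54.5 and 54.6 FPKM with both. The radiation libraries stood above all others and the combination libraries stood just above the controls. The rise after radiation was 0.53 (SE 0.0867, adjusted p = 0.00266). The combination against control was 0.14 (95% interval -0.052 to 0.33, adjusted p = 0.216).

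Kif15 (ENSMUSG00000036768, chromosome 9, 122951046 to 123018733, plus strand) was at 9.41, 8.18 and 9.30 FPKM in controls and 7.84, 6.25 and 7.96 FPKM with nintedanib. After radiation it was at 10.5, 11.5 and 11.99 FPKM, and with both at 8.84, 7.84 and 8.00 FPKM. Its nintedanib libraries lay below all controls and its radiation libraries above them, while the combination overlapped the controls. Radiation raised it by 0.31 (SE 0.0928, adjusted p = 0.0413). That call did not hold without any 1 control library, radiation replicate 2 or 3, or combination replicate 2 or 3 (adjusted p = 0.0514 to 0.144, log2 fold change 0.25 to 0.34).

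The motors of chromosome movement and alignment are Kif18a, which damps chromosome oscillations at the plus ends of kinetochore microtubules, Kif2c (MCAK), which takes microtubule ends apart and frees wrong attachments, and the chromosome-bound motors Kif22 (Kid) and Kif4. Kif18a had the lowest level of the 10 (ENSMUSG00000027115, chromosome 2, 109280738 to 109341747, plus strand). It was at 3.64, 3.42 and 3.63 FPKM in controls, 3.26, 3.08 and 4.13 FPKM with nintedanib, 7.11, 6.45 and 6.16 FPKM after radiation and 4.87, 4.57 and 4.34 FPKM with both. The irradiated groups did not overlap the unirradiated ones or each other. The mean FPKM was 1.85 times that of controls after radiation, and the fitted change of 0.73 (SE 0.089, adjusted p = 0.000503) understates this because of the pseudocount.

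Kif2c (ENSMUSG00000028678, chromosome 4, 117159639 to 117182639, minus strand) was at 18.7, 21.5 and 19.5 FPKM in controls and 19.5, 16.9 and 18.6 FPKM with nintedanib. It reached 36.7, 35.8 and 34.4 FPKM after radiation and 30.3, 31.4 and 30.4 FPKM with both. Both irradiated groups stood clear of both unirradiated groups. The increase over control was 0.81 (SE 0.07, adjusted p = 9.21e-05) after radiation and 0.60 (adjusted p = 4e-05) with both.

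Kif22 (ENSMUSG00000030677, chromosome 7, 127027729 to 127042471, minus strand) had the smallest change of the 10 after radiation against control. Its levels were 16.5, 18.8 and 17.2 FPKM in controls, 16.3, 13.96 and 14.8 FPKM with nintedanib, 23.3, 19.9 and 20.6 FPKM after radiation and 19.6, 21.3 and 20.1 FPKM with both. The radiation and combination libraries overlapped each other and lay above all controls. The radiation change was 0.27 (SE 0.0795, adjusted p = 0.0397). The call was lost without control replicate 1 or 3, any 1 radiation library or combination replicate 3 (adjusted p = 0.0509 to 0.132, log2 fold change 0.20 to 0.31). It was also lost with replicate number as a block, with no filter on low values and with only the 2 groups fitted (adjusted p = 0.0501 to 0.0717). Kif22 shares 3824 bases with Gm31749 on the other strand, which was at 0.0968 to 1.79 FPKM, and the strand setting of the counting is not given in the sources used here. Its pseudogene Kif22-ps and that of Kif4, Kif4-ps, were listed at 0 in all libraries.

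Kif4, which also binds the midzone bundler Prc1, lies on chromosome X (ENSMUSG00000034311, 100625737 to 100727214, plus strand). It was at 18.8, 17.0 and 19.6 FPKM in controls, 17.0, 14.1 and 15.7 FPKM with nintedanib, 26.6, 25.5 and 27.6 FPKM after radiation and 23.8, 21.0 and 21.4 FPKM with both. The 2 irradiated groups lay above all controls and did not overlap each other. The radiation change was 0.50 (SE 0.0817, adjusted p = 0.00255). Kif4 overlaps Pdzd11 on the other strand by 832 bases (13.0 to 21.9 FPKM), and without a known strand setting their reads cannot be told apart there.

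The motors of the central spindle and of cytokinesis are Kif20a (MKLP2), which carries the chromosomal passenger complex to the midzone, its relative Kif20b, Kif23 (MKLP1), which forms centralspindlin with Racgap1, and Kif14, which works with Prc1 and the kinase Cit at the midbody. Kif20a was the member that rose most (ENSMUSG00000003779, chromosome 18, 34624624 to 34633265, plus strand). It was at 27.6, 26.3 and 28.9 FPKM in controls, 30.2, 22.9 and 25.0 FPKM with nintedanib, 62.0, 62.6 and 66.5 FPKM after radiation and 56.9, 52.5 and 51.3 FPKM with both. Every irradiated library exceeded every unirradiated one by more than 20 FPKM, and the radiation libraries lay above the combination libraries. The radiation change was 1.18 (SE 0.0915, adjusted p = 5.86e-05), and 29 genes of 13012 had a larger one. Kif20a overlaps Cdc23 on the other strand by 2315 bases, and Cdc23 was at 6.75 to 9.20 FPKM.

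Kif20b (ENSMUSG00000024795, chromosome 19, 34922361 to 34975745, plus strand) followed, at 14.3, 11.02 and 13.4 FPKM in controls, 14.2, 14.03 and 16.5 FPKM with nintedanib, 22.8, 24.4 and 23.4 FPKM after radiation and 23.2, 19.4 and 20.7 FPKM with both. It was the only member whose nintedanib mean lay above its control mean, although those libraries overlapped the controls. The radiation change was 0.82 (SE 0.0997, adjusted p = 0.000487).

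Kif23 (ENSMUSG00000032254, chromosome 9, 61915905 to 61946774, minus strand) was at 14.1, 13.4 and 13.8 FPKM in controls, 12.5, 9.90 and 11.6 FPKM with nintedanib, 19.6, 20.02 and 19.8 FPKM after radiation and 14.1, 13.5 and 13.5 FPKM with both. The combination libraries thus overlapped the controls and lay below every radiation library. The radiation change was 0.50 (SE 0.0738, adjusted p = 0.00164) and the combination change was 0.00 (95% interval -0.16 to 0.16, adjusted p = 0.983). Kif14 (ENSMUSG00000041498, chromosome 1, 136466343 to 136531511, plus strand) was at 8.20, 6.52 and 8.11 FPKM in controls, 7.89, 6.52 and 6.68 FPKM with nintedanib, 12.2, 11.03 and 11.9 FPKM after radiation and 9.22, 7.64 and 8.92 FPKM with both. Its radiation libraries stood above all others, and the other 3 groups overlapped. It rose by 0.57 after radiation (SE 0.1, adjusted p = 0.00383).

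Radiation against control asks what 8 Gy changed in 24 hours without the drug. All 10 members were called higher, and all 10 had radiation libraries above every control library. Over all genes 8.04% were called higher and 17.4% had radiation libraries above every control library. Because the members were chosen with earlier results of these data known, this contrast is a description and no independent test. The members' median was 0.55 and the median of all genes tested was -0.04. On the log2(FPKM + 1) scale the changes ran from Kif20a (1.18), Kif20b (0.82), Kif2c (0.81) and Kif18a (0.73) through Kif14 (0.57), Kif11 (0.53), Kif4 (0.50) and Kif23 (0.50) to Kif15 (0.31) and Kif22 (0.27). By the ratio of mean FPKM, Kif18a (1.85) came second, ahead of Kif20b (1.82) and Kif2c (1.79). A further comparison, radiation against nintedanib as single treatments, also had 10 of 10 members higher with radiation (0.48 to 1.27, adjusted p at most 0.000723), against 18.3% of all genes.

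**Figure D2:**
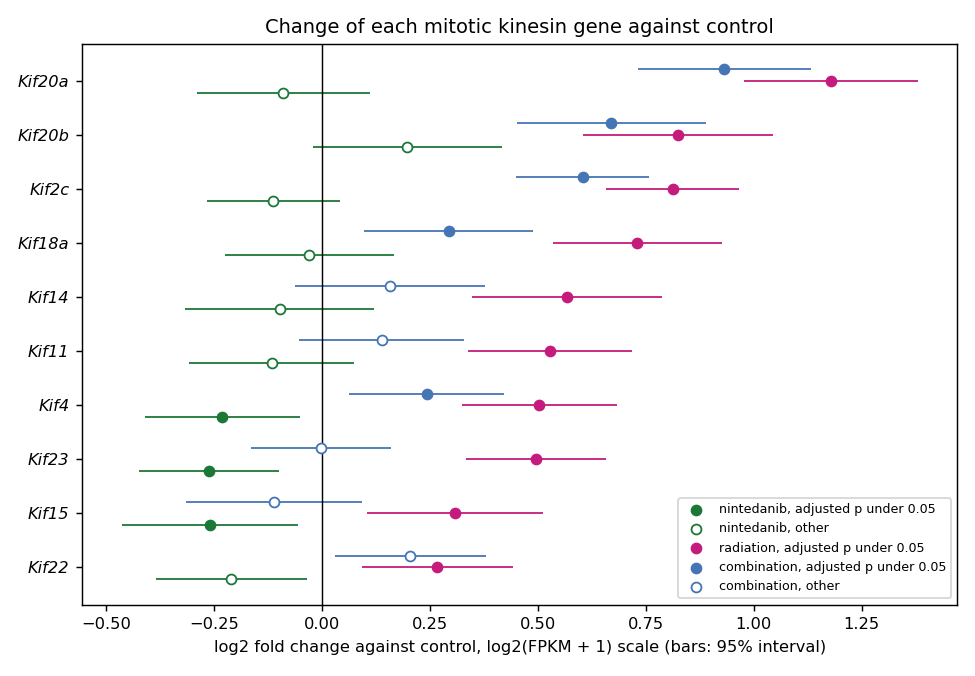
Log2 fold change of each mitotic kinesin gene against control (log2(FPKM + 1) scale) for nintedanib, radiation and the combination, with 95% intervals from the limma fit. Filled points passed an adjusted p of 0.05: all 10 for radiation and 5 of 10 for the combination, both higher (8.04% and 22.3% of all genes), and 3 of 10 for nintedanib, lower (22% of all genes).

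The effect of the drug without radiation was read from nintedanib against control. Kif23 (-0.26, SE 0.0738, adjusted p = 0.0146), Kif15 (-0.26, adjusted p = 0.043) and Kif4 (-0.23, adjusted p = 0.0406) were called lower. These are 3 of 10, where 22% of all genes were called lower, so the members' share is close to that of all genes. No member was called higher, beside 19.7% of all genes (limma; 4 of 10 had an unadjusted p under 0.05, all lower, beside 49.6% of all genes in either direction, and limma voom on recovered fragments called Kif20b higher). The members' median was -0.11, beside -0.02 for all genes. Kif22 was at -0.21 (adjusted p = 0.0532), and the remaining 6 were between -0.12 and 0.20.

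Nintedanib replicate 2 had the lowest value of its group in all 10 members. Without it the members' median was -0.05 and 1 member was called lower. The calls of Kif15 and Kif4 were lost without it and without any 1 of 6 and 7 other libraries (adjusted p = 0.0509 to 0.167 for Kif15 and 0.0503 to 0.155 for Kif4). For Kif15 those were control replicates 1 and 3, radiation replicates 2 and 3 and combination replicates 2 and 3. For Kif4 they were control replicates 1 and 3, nintedanib replicate 3, all 3 radiation libraries and combination replicate 3. When libraries were rescaled to a common FPKM sum no member was called lower, with a median of -0.02.

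The joint effect of the 2 treatments was read from the combination against control. Kif20a (0.93, SE 0.0915, adjusted p = 1.26e-05), Kif20b (0.67, adjusted p = 0.000236), Kif2c (0.60), Kif18a (0.29, adjusted p = 0.0181) and Kif4 (0.24, adjusted p = 0.0294) were higher. This is 5 of 10, and 22.3% of all genes were called higher. Libraries of the combination lay above every control library in 7 members, and 26.7% of all genes showed this. Kif22 (0.20, adjusted p = 0.0534), Kif14 (0.16), Kif11 (0.14), Kif23 (0.00) and Kif15 (-0.11, 95% interval -0.31 to 0.093) did not pass. Without combination replicate 1 the count was 3, since Kif18a and Kif4 no longer passed. Both were also lost without control replicate 2, and Kif4 without control replicate 1 (adjusted p = 0.0565 to 0.0613 for Kif18a and 0.055 to 0.11 for Kif4).

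Among irradiated cells, the comparison of both treatments with radiation alone asks what nintedanib added. All 10 estimates were negative and 7 genes fell, against 17.3% of all genes called lower: Kif23 (-0.50, SE 0.0738, adjusted p = 0.000417), Kif18a (-0.44, adjusted p = 0.00307), Kif15 (-0.42, adjusted p = 0.00489), Kif14 (-0.41, adjusted p = 0.00866), Kif11 (-0.39, adjusted p = 0.00505), Kif4 (-0.26, adjusted p = 0.0291) and Kif2c (-0.21, adjusted p = 0.039). In 8 members the combination libraries lay below every radiation library, as in 24.1% of all genes. The members' median was -0.32 and that of all genes -0.01. Kif20a (-0.25, adjusted p = 0.0577), Kif20b (-0.15, 95% interval -0.37 to 0.065) and Kif22 (-0.06, 95% interval -0.24 to 0.11) did not pass.

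In mean FPKM the combination stood at 0.693 of radiation alone for Kif23, 0.699 for Kif18a, 0.841 for Kif20a and 0.954 for Kif22. The call of Kif2c was lost without control replicate 3 or any 1 radiation or combination library (adjusted p = 0.0543 to 0.115). It was also lost with replicate number as a block and with no filter on low values (adjusted p = 0.054 to 0.0721). That of Kif4 was lost without radiation replicate 1 or 3 or combination replicate 2 or 3 (adjusted p = 0.0711 to 0.0986).

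Radiation within nintedanib-treated cells asks whether radiation still moved the genes in the presence of the drug. Kif20a (1.02, SE 0.0915, adjusted p = 0.000464), Kif2c (0.72, adjusted p = 0.000676), Kif4 (0.47, adjusted p = 0.00889), Kif20b (0.47, adjusted p = 0.0219) and Kif22 (0.41, adjusted p = 0.0149) were higher. These are 5 of 10 members, beside 3.17% of all genes. Kif18a (0.32, adjusted p = 0.06), Kif23 (0.26, adjusted p = 0.0676), Kif14 (0.26), Kif11 (0.26) and Kif15 (0.15) were positive and did not pass. In 8 members the combination libraries lay above every nintedanib library, beside 10.4% of all genes. Without nintedanib replicate 2, 3 members passed: Kif20b and Kif22 were lost (adjusted p = 0.0525 to 0.0713 and 0.0537 to 0.0626 over the libraries whose removal ended their calls). For Kif20b those were nintedanib replicates 1 and 2 and combination replicates 1 and 3, and for Kif22 nintedanib replicate 2 and combination replicate 2. Only 2 members passed when the 6 libraries of these groups were fitted alone.

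The interaction tests whether the effect of nintedanib differed between irradiated and unirradiated cells. No member passed (limma, adjusted p = 0.266 to 0.924, and 0 also by limma voom), and 1 gene of 13012 did, 0.00769%. At an unadjusted p under 0.05 there were 4 members, Kif18a, Kif20b, Kif23 and Kif11, and 12.9% of all genes. The estimate was negative in 9 members, with a median of -0.20 beside 0.01 for all genes. Kif18a had the most negative value (-0.41, 95% interval -0.68 to -0.13) and Kif22 the only positive one (0.15, 95% interval -0.099 to 0.39). For the 6 members with an unadjusted p above 0.05 the intervals include 0, that of Kif4 from -0.28 to 0.22 and that of Kif14 from -0.62 to 0.00061. Rescaling to a common FPKM sum moved the median of all genes from 0.01 to -0.10 and that of the members from -0.20 to -0.33.

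**Figure D3:**
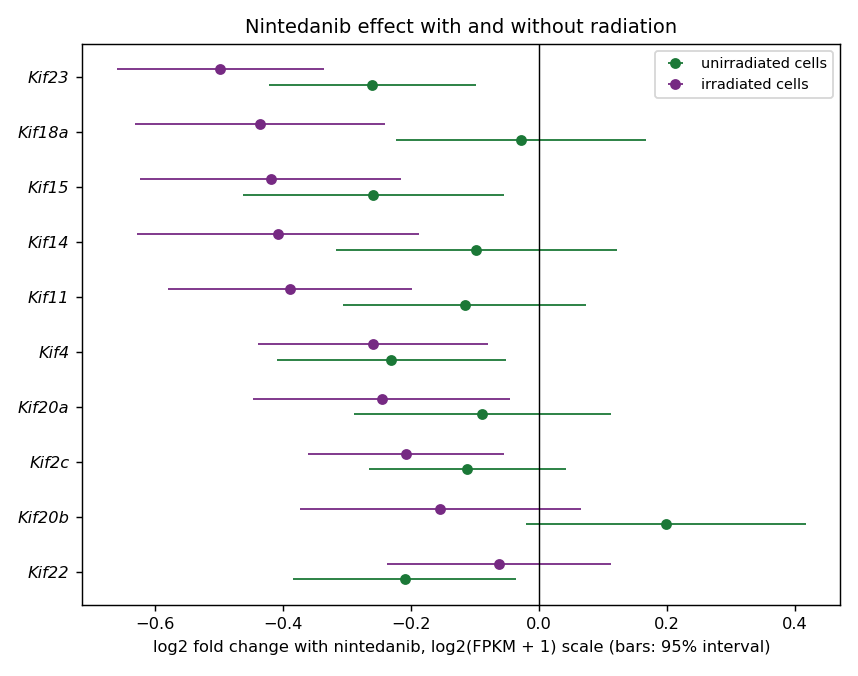
Log2 fold change with nintedanib in unirradiated cells (against control) and in irradiated cells (against radiation alone) for each gene, with 95% intervals from the limma fit. The irradiated estimates are all negative, from -0.06 (Kif22) to -0.50 (Kif23), and the intervals of the 2 conditions overlap in all genes but Kif18a. No difference between them passed the interaction test.

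In the order of the 4 group means, 7 members had nintedanib, control, combination and radiation from low to high. Kif15 and Kif23 had the combination below the control, and Kif20b had the control below nintedanib. A neighbouring pair was taken to differ where its comparison passed and its libraries did not overlap. By this measure radiation stood above the next group in 7 members, the 2 middle groups differed in 5, and the lowest 2 groups differed in none. In Kif20a, Kif20b and Kif22 radiation and the combination did not meet this measure, although the Kif20a libraries did not overlap.

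The members followed each other closely across libraries. The Pearson correlation of each member with the mean of the other 9 over the 12 libraries was 0.787 (Kif15) to 0.976 (Kif4), which describes 4 treatment groups more than 12 independent points. The mean over members, centred on each gene, was 0.40 to 0.44 in the radiation libraries, 0.07 to 0.18 in the combination, -0.27 to -0.17 in the controls and -0.46 to -0.24 with nintedanib (log2 units). Outside the members, the genes whose levels most resembled this mean were Prc1 (r = 0.993), Ttk (0.988), Ckap2 (0.988), Arhgap11a (0.985) and Ect2 (0.984), over the same 12 libraries. Prc1 was at 24.8, 23.8, 47.2 and 35.7 FPKM on average in control, nintedanib, radiation and combination.

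Of 6 further kinesins with mitotic or centrosomal roles that were high enough to test, 4 rose after radiation, beside 8.04% of all genes. Kif18b, a partner of Kif2c on astral microtubules, went from 24.0 ± 1.31 to 43.7 ± 0.325 FPKM (SD, n = 3; 0.84, adjusted p = 0.000308). Cenpe, the kinetochore motor that brings chromosomes to the metaphase plate, went from 22.6 ± 2.43 to 37.5 ± 2.04 FPKM (0.71, adjusted p = 0.00131). Kifc1, a minus-end motor that focuses spindle poles, had 0.84 (33.9 to 61.1 FPKM), and 0.48 with both treatments (adjusted p = 0.0189), and Kifc5b had 0.69 after radiation. Kifc1 and Kifc5b are near-identical copies, and the split of reads between the pair is uncertain. Kif2a, a relative of Kif2c that acts at spindle poles and in interphase, had 11.2 FPKM without treatment, 11.1 FPKM after radiation (-0.02, adjusted p = 0.915) and 8.10 FPKM with nintedanib (-0.43, adjusted p = 0.00155). With both it was at 7.52 FPKM (-0.52, adjusted p = 0.000343). Kif24 was at 1.70 and 2.10 FPKM (0.20, adjusted p = 0.321), and Kif2b was listed at 0. Kif2a was not alone in its fall with nintedanib: 3 of the 6 were called lower and 1 higher, beside 22% and 19.7% of all genes. The others were Kif18b (-0.39, adjusted p = 0.0056) and Kifc5b (-0.33, adjusted p = 0.0472), lower, and Kif24 (0.42, adjusted p = 0.0252), higher.

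Among 19 tested kinesins and light chains of cargo transport and signalling, 1 rose after radiation (Kif21b, 1.07 to 1.76 FPKM) and 2 fell (the light chains Klc1, -0.30, and Klc2, -0.43), and the median was -0.03. Of all genes 8.04% were called higher after radiation and 1288 of 13012 lower. Kifap3, the cargo adaptor of the Kif3 motors, was at 0.20 (adjusted p = 0.114). With nintedanib alone 8 of these 19 rose and 1 fell, with a median of 0.23, beside 19.7% of all genes higher and 22% lower. The difference between these genes and the mitotic members was not tested. Those that rose included Kifc2 (0.70), Kif21a (0.66), Kif16b, an endosome motor (0.55), and Kif3c (0.53); Kif13a fell (-0.30). With both treatments Kif16b was at 0.44 and Kif13a at -0.47, the smallest adjusted p of the list. The remaining 12 of the 31 genes on this list did not reach 1 FPKM in 3 libraries.

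Of 23 tested partners and mitotic regulators of the motors, 17 rose and 0 fell after radiation, with a median of 0.54. Of all genes 8.04% were called higher and 1288 of 13012 lower. The cyclin Ccnb2 (1.17), the spindle protein Nusap1 (1.14), the cohesin protector Sgo2a (0.94) and Tpx2, which targets Aurka and Kif15 to the spindle (0.85), had the smallest adjusted p. Among direct partners Prc1, which recruits Kif4 and Kif14, rose by 0.90 and Racgap1, the partner of Kif23, by 0.39 (adjusted p = 0.00638), while Cit was at 0.29 (adjusted p = 0.0698) and Aurkb, which phosphorylates Kif2c, Kif20a and Kif23, at 0.15 (adjusted p = 0.303). With both treatments 12 of the 23 were called above control and 0 below, beside 22.3% and 25% of all genes. Ccnb2 (1.16) and Nusap1 (0.95) had the smallest adjusted p. Among irradiated cells 10 were called lower with nintedanib, beside 17.3% of all genes. Without radiation nintedanib had 8 of the 23 lower and 1 higher, beside 22% and 19.7% of all genes.

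Of 22 tested transcription factors and repressors of mitotic genes, 5 rose and 1 fell after radiation, with a median of 0.10: E2f2 (0.66), Lin54, which binds the CHR (0.36), Foxm1 (0.30, adjusted p = 0.0257) and Lin9 (0.35) were among those that rose. The shares of all genes after radiation were 8.04% higher and 1288 of 13012 lower. Mybl2 had 22.6 FPKM without treatment, 24.3 FPKM after radiation (0.10, adjusted p = 0.7) and 16.2 FPKM with both (-0.47, adjusted p = 0.0271). It was already at 15.1 FPKM with nintedanib alone (-0.58, adjusted p = 0.0115). With both treatments 11 of the 22 were called below control and 3 above, beside 25% and 22.3% of all genes. Trp53, the gene of p53, fell by 0.86 (adjusted p = 5.06e-06) and the NF-Y subunit Nfya by 0.69 (adjusted p = 1.32e-05). Both were also lower with nintedanib alone, Trp53 at -0.82 (adjusted p = 8.54e-06) and Nfya at -0.39 (adjusted p = 0.000812). Nfya was the 1 gene of this list that fell after radiation alone (-0.23, adjusted p = 0.0372), where Trp53 was at -0.18 (adjusted p = 0.118). Nintedanib alone had 10 of the 22 lower and 1 higher, beside 22% and 19.7% of all genes. The 35 S-phase genes had a median of 0.22 after radiation, with 6 higher (Gins3, 0.46, Mcm3, 0.50, Cdc45, 0.35, and Prim2, 0.30, among them) and 2 lower, and a median of -0.12 with both, with 2 higher and 12 lower. Beside these counts stand the same shares of all genes after radiation, and 22.3% higher and 25% lower with both. Nintedanib alone already had 17 of the 35 lower and 0 higher, with a median of -0.23, beside 22% and 19.7% of all genes. Tk1, a thymidine kinase (-0.88), and Ccne1, the cyclin of S-phase entry (-1.01), fell with both. Cell cycle phase was not measured, and its part in the kinesin values was not tested.

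**Figure D4:**
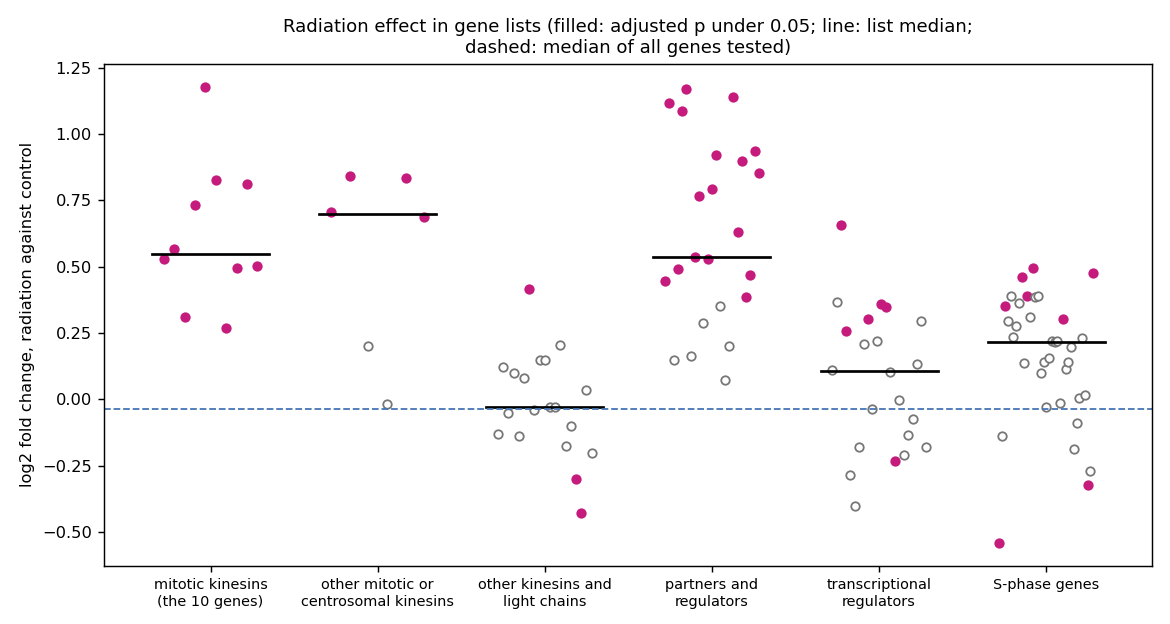
Log2 fold change after radiation against control for every tested gene of the 10 mitotic kinesins and of 5 other lists. Filled points passed an adjusted p of 0.05, solid lines are list medians (0.55 for the mitotic kinesins, -0.03 for cargo kinesins and light chains) and the dashed line is the median of all genes tested.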

How the data were processed

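RNA of 12 MC38 cultures was sequenced from total RNA with a SMARTER mRNA kit, per the labels' protocols. The deposited table gives FPKM per gene with coordinates and gene model length, per the file headers, and the submitters' processing notes name GRCm38 (mm10). For the aligner, the counter, the annotation release and the strand setting: not given in the sources used here. FPKM multiplied by length was a whole multiple of 1 step (tolerance 0.01) for 100% of nonzero values, which gave the fragment totals. No replicate was a copy of another (chi-square per gene 4.30 to 30.2 over 12 pairs).

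Log2(FPKM + 1) was tested with limma 3.58.1 (R 4.3.3, two-sided, empirical Bayes with a trend in mean intensity), 1 mean per group, 8 residual degrees of freedom. A gene entered with 1 FPKM or more in 3 or more libraries (13012 genes, all 10 members among them). Benjamini-Hochberg adjustment ran over all genes tested in each of 7 comparisons, at 0.05. The comparisons with control share the control libraries. Intervals are 95% and unadjusted. The fit was tested on simulated data. The members and lists were chosen with earlier results of these data known. From other lists, all further mitotic kinesins were named, and up to 4 genes with the smallest adjusted p for radiation and 2 for the combination. Prc1, Racgap1, Cit, Aurkb, Mybl2 and the cargo kinesins named for nintedanib were chosen after their values were seen. The 5 most similar genes exclude predicted symbols. Of the partner list, 23 of 24 symbols matched. Positions of 9 of the 10 members were the same in GENCODE M21. Alternatives were another pseudocount, other filters and scalings, voom on recovered fragments, the groups alone, a replicate block, no trend, and leaving out each library.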

Additional observations from a re-analysis of the deposited data

How the results depend on the processing

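Over the 21 other settings of each comparison between groups (20 for the interaction), no member's called change turned its direction, and 1364 of 1460 recomputed gene values kept their side of the threshold. Radiation against control kept 8 to 10 members higher and radiation against nintedanib 10. The members' median for radiation against control was 0.48 to 0.65. For nintedanib against control the number called lower was 1 with no filter on low values, 0 after rescaling to a common FPKM sum, 1 after rescaling by median of ratios, 1 with voom, 0 with only the groups compared and 1 to 4 when 1 library was left out; voom called 1 higher. Leaving out 1 library gave 3 to 6 higher for the combination and 3 to 6 for radiation within nintedanib-treated cells, which had 2 with only the groups compared. Some settings also added calls. Voom called 7 members higher for radiation within nintedanib-treated cells and 6 for the combination. Kif22 passed for the combination against control in 8 of the 21 settings, and Kif20a passed as lower within irradiated cells in 6. The causes were not tested. Rescaling to a common FPKM sum moved the share of called genes that were higher from 44.8 to 69.8% for radiation and from 47.2 to 60% for nintedanib. Same-numbered libraries showed no common deviation (3 of 18 pairs above 0.1, -0.30 to 0.20), and 4 of 12 libraries correlated best with their own number. With 3 libraries per group this check cannot exclude that same-numbered libraries share a run. With the replicate block, radiation against control had 9 members higher (without Kif22) and nintedanib within irradiated cells 6 lower (without Kif2c); the other counts did not move. Genes called over all 13012 fell from 722 to 444 with the block for radiation within nintedanib-treated cells, to 43 with only the groups compared and to 269 at the least when 1 library was left out; without 1 library radiation against control called 1145 to 2606.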
